A study of Mus musculus with 10 samples.

Results

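De novo lipogenesis is the making of fatty acids from acetyl-CoA, and 10 genes of this pathway and its control were followed here among the 22180 genes measured in mouse jejunum with and without the phosphatidylcholine synthesis gene Pcyt1a. The members were fixed by gene symbol: the transcription factors Srebf1 and Mlxipl, the lipogenic regulator Thrsp, the enzymes Acly, Acss2, Acaca, Acacb, Fasn and Me1, and the lipid droplet protein Pnpla3. All 10 had a single probe set on the array, so no choice between probe sets was needed. Both groups were female mice of 10 to 12 weeks. The knockouts, arrays 1 to 5, were Pcyt1aLoxP/LoxP;VilCreERT2, in which a tamoxifen-inducible Cre is driven by the promoter of the epithelial gene villin, and the controls, arrays 6 to 10, were Pcyt1aLoxP/LoxP without the Cre. Tamoxifen for 5 days, a high fat diet for 4 days and an overnight fast were shared by both groups, so any effect of these is in the controls too. A comparison between them reads the loss of the gene together with the presence of an active Cre. The arrays read whole 3 cm pieces of jejunum, so transcripts from muscle, immune and stromal cells, which do not express villin, are included. In such tissue, fewer cells of a type and less RNA per cell cannot be told apart.

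In this pathway mitochondrial citrate reaches the cytosol, where ATP citrate lyase (Acly) splits it to acetyl-CoA, while Acss2 makes acetyl-CoA from acetate. Acetyl-CoA carboxylase (Acaca, and its paralog Acacb at the mitochondrial surface) adds carboxyl to form malonyl-CoA, and fatty acid synthase (Fasn) builds palmitate from it with NADPH, to which malic enzyme (Me1) contributes. SREBP-1, the product of Srebf1, and ChREBP, the product of Mlxipl, are the transcription factors that raise these genes after feeding, SREBP-1 known for its response to insulin and ChREBP for its response to sugar, and SREBP-1 must be cut from a membrane precursor before it acts. Low phosphatidylcholine has been reported to favour that cutting in worms and in mammalian cells, which gives the question that these genes address in the jejunum. Transcript levels do not measure the cutting of the protein.

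Promoter sequence is shown for the enzymes Fasn, Acly, Acaca and Acacb, whose values moved together from array to array, and for Mlxipl, whose values moved against theirs. Srebf1, Me1 and Thrsp also moved against these enzymes, and their windows are not printed. RefSeq's table for GRCm38.p6 held 14 start windows for the 10 members, 7 of which had 1 window. Each line gives the 250 bases before the annotated start, 5′ to 3′ on the strand of the gene. Capitals mark matches, on either strand, to any of 5 motifs: the SREBP site TCACNCCAC, a shorter SREBP core ATCACNC that can overlap it, the NF-Y box CCAAT, the Sp1 box GGGCGG and the E-box CACGTG, to which ChREBP binds in pairs.

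Fasn, chr11:120824548-120824797, minus strand: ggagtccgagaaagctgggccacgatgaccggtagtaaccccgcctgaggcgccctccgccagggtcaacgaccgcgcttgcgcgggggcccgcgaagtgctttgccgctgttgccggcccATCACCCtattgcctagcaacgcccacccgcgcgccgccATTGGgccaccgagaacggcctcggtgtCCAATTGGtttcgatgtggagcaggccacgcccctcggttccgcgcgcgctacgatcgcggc

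Acly, chr11:100528001-100528250, minus strand: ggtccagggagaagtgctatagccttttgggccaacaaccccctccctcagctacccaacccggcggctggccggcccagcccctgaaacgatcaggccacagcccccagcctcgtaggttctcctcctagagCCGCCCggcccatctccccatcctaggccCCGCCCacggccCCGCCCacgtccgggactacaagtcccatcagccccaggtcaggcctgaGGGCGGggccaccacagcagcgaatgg

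Acaca, chr11:84195188-84195437, plus strand: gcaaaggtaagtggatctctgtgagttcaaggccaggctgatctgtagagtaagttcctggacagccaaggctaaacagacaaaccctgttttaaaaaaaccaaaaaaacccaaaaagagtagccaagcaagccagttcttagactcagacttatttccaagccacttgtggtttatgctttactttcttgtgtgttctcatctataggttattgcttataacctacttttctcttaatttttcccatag

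Acacb, chr5:114165268-114165517, plus strand: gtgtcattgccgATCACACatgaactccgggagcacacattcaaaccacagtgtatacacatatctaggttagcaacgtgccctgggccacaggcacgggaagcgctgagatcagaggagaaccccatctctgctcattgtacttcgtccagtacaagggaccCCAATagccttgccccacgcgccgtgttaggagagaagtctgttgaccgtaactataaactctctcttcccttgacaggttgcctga

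Mlxipl, chr5:135089640-135089889, plus strand: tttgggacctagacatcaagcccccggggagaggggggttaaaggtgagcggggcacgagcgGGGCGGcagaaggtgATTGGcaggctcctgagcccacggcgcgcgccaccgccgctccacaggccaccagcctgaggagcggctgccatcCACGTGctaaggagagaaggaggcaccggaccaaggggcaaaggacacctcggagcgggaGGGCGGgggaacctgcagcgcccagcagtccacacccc

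Mlxipl, second start, chr5:135106641-135106890, plus strand: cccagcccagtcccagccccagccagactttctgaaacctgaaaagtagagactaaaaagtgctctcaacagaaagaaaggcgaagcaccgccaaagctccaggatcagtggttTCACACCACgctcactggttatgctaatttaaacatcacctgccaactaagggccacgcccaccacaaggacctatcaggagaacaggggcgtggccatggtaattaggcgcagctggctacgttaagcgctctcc

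The Fasn window held a short SREBP core beginning 129 bases before the start and 3 NF-Y boxes, 2 of which overlap in the run CCAATTGG. In Acly the matches were 4 Sp1 boxes, in Acacb a short core 238 bases and an NF-Y box 87 bases before the start, and the Acaca window held none of the 5 motifs. That window had the lowest GC content of the 14 (39.2%) and lies before the single start listed for Acaca. Whether that start is used in jejunum was not tested, and any other Acaca start was not searched. The SREBP site was found in the second Mlxipl window, 136 bases before that start, and the E-box in the other, 98 bases before its start. Over all 32851 windows of this length the share with a match was 1.05% for the SREBP site, 7.56% for the short core, 33.8% for the NF-Y box, 32.7% for the Sp1 box and 6.02% for the E-box. Among the 14 member windows these matches numbered 1, 2, 9, 7 and 1. A match is a run of letters in this window, and binding was not measured.

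Before the members, the arrays themselves were compared. Pcyt1a read 7.14 to 7.80 on the knockout arrays, against 9.18 to 9.55 on the control arrays, all in log2 intensity, a difference of -1.93 (SE 0.13, adjusted p = 9.577e-05 by limma), so the targeted gene matched the group labels. Values are log2 intensities throughout, and fold changes are knockout over control. Enterocyte markers, 11 of 12 measured, averaged 12.63 to 12.93 in knockouts and 12.76 to 12.96 in controls. Paneth cell markers, 8 of 12 measured, were low on knockout 2 (9.88), control 6 (9.97) and control 8 (10.62) and lay between 11.36 and 12.54 on the other 7 arrays. Markers of proliferating cells, 9 of 10 measured, averaged 7.78 to 8.77 in knockouts and 6.99 to 7.85 in controls, and all 9 had positive fold changes with an unadjusted limma p under 0.05, as 8.29% of all genes had. On knockout 2 and control 6 these markers were also the lowest of their group.

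None of the 10 lipogenesis genes differed between knockout and control at a limma p adjusted over all 22180 genes, for which 0.0271% of all genes were called. The smallest adjusted p among them was 0.262, that of Acaca. At an unadjusted p under 0.05 there were 2 of 10, Acaca higher and Mlxipl lower in knockouts, a share set against 13.9% of all genes. A positive log2 fold change was seen for 7 members, where 46.8% of all genes had one, and the members' median was 0.22, beside -0.014 over all genes. Knockout and control values overlapped for all 10 members (2.6% of all genes did not overlap). Without knockout 2, Acaca, Acly and Fasn had no overlap, 3 of 10 where 7.66% of all genes had none. Knockout 2 was the only knockout not above every control for these 3 genes, so leaving it out was bound to part them. In that fit 4 of 10 members had an unadjusted limma p under 0.05, beside 15.9% of all genes. By role, the 6 synthesis enzymes all had positive values, from 0.21 for Acss2 to 0.56 for Me1, whereas of the regulators Srebf1 was near 0, Mlxipl was negative and Thrsp positive but small.

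**Figure D1:**
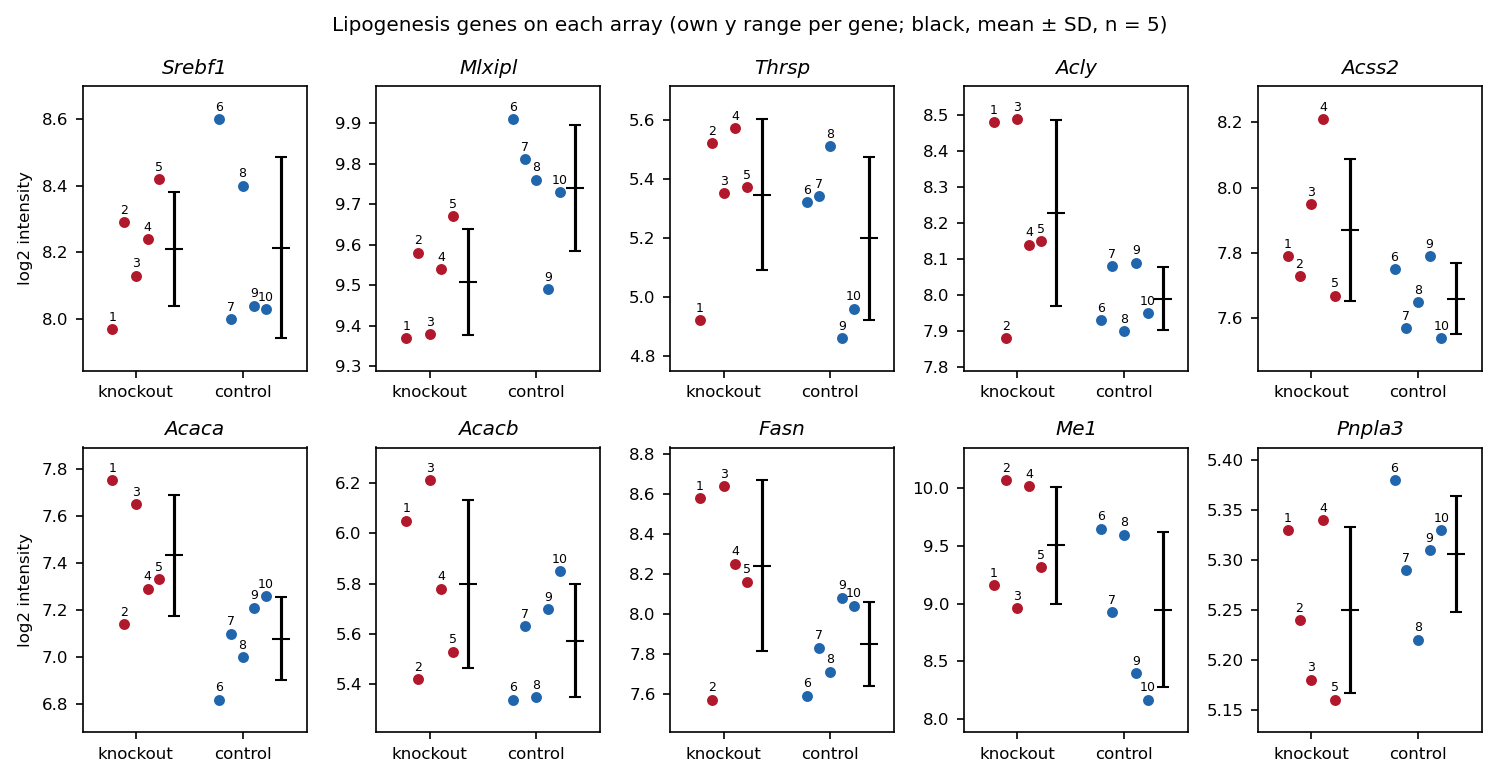
Log2 intensity (y axis, with its own range for each gene) of the 10 lipogenesis genes on each knockout array (red, numbers 1 to 5) and control array (blue, numbers 6 to 10), with mean ± SD in black. For Acaca, Fasn and Acly, 4 of the 5 knockout arrays lie above every control array and knockout 2 does not, and for Srebf1 the groups cover the same range.

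Srebf1 was indistinguishable between the groups. Its log2 intensity was 7.97, 8.29, 8.13, 8.24 and 8.42 on knockout arrays 1 to 5, against 8.60, 8.00, 8.40, 8.04 and 8.03 on control arrays 6 to 10. The control range spans nearly all of the knockout range, and the highest value of all was control 6. The gene averaged 8.21 ± 0.17 over the 5 knockouts and 8.21 ± 0.27 over the 5 controls (SD), a fold of 0.997 whose 95% interval was 0.814 to 1.22. Changes smaller than these bounds were not resolved with 5 arrays a group.

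Mlxipl, which encodes ChREBP, was lower in knockouts by less than the test over all genes requires. The knockout arrays read 9.37, 9.58, 9.38, 9.54 and 9.67, against 9.91, 9.81, 9.76, 9.49 and 9.73 on the control arrays. Control 9 lies within the knockout range, and the other 4 controls are above all knockouts. Mlxipl averaged 9.51 ± 0.13 over the 5 knockouts and 9.74 ± 0.16 over the 5 controls (SD), which is -0.23 in log2 (SE 0.10, adjusted p = 0.330 by limma) and a fold of 0.851. Thrsp, a small protein that stimulates lipogenesis in liver and fat, read 4.92, 5.52, 5.35, 5.57 and 5.37 in knockouts, against 5.32, 5.34, 5.51, 4.86 and 4.96 in controls. Low values were found on knockout 1, control 9 and control 10, and the groups overlap throughout. The difference was 0.15 (SE 0.15, adjusted p = 0.707 by limma), and it ranged with 1 array left out between 0.0635 without control 9 and 0.25 without knockout 1. It was 0.092 without knockout 4, 0.0885 without control 10 and 0.23 without control 8.

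The enzymes that supply cytosolic acetyl-CoA were slightly higher in knockouts, within the reach of the array-to-array spread. Acly read 8.48, 7.88, 8.49, 8.14 and 8.15 on the knockout arrays, against 7.93, 8.08, 7.90, 8.09 and 7.95 on the control arrays. Knockout 2 was the lowest of all 10 arrays, and the other 4 knockouts were above every control. In log2 the knockouts differed by 0.24 (SE 0.12, adjusted p = 0.410 by limma), a fold of 1.18 with a 95% interval of 0.984 to 1.41. Acss2 read 7.79, 7.73, 7.95, 8.21 and 7.67 in knockouts, against 7.75, 7.57, 7.65, 7.79 and 7.54 in controls. Every knockout lay above the control mean, and knockouts 3 and 4 exceeded every control. In log2 that was 0.21 (SE 0.11, adjusted p = 0.430), and 0.13 without knockout 4.

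Acaca, the cytosolic acetyl-CoA carboxylase, had the smallest p among the members. It read 7.75, 7.14, 7.65, 7.29 and 7.33 on the knockout arrays, against 6.82, 7.10, 7.00, 7.21 and 7.26 on the control arrays. All knockouts but knockout 2 were above all controls. Acaca averaged 7.43 ± 0.26 over the 5 knockouts and 7.08 ± 0.18 over the 5 controls (SD), a difference of 0.35 (SE 0.13, adjusted p = 0.262 by limma). As a fold this was 1.28, with a 95% interval of 1.05 to 1.56. Its paralog Acacb read 6.05, 5.42, 6.21, 5.78 and 5.53 in knockouts, against 5.34, 5.63, 5.35, 5.70 and 5.85 in controls. Only knockouts 1 and 3 were above the controls, and the difference of 0.22 (SE 0.16, adjusted p = 0.574), 0.12 without knockout 3, was not resolved. Whether the paralogs differ in their response was not tested.

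Fasn, which makes palmitate, read 8.58, 7.57, 8.64, 8.25 and 8.16 on the knockout arrays, against 7.59, 7.83, 7.71, 8.08 and 8.04 on the control arrays. Knockout 2 was the lowest of the 10 arrays and the other knockouts were the 4 highest. Fasn averaged 8.24 ± 0.43 over the 5 knockouts and 7.85 ± 0.21 over the 5 controls (SD), a difference of 0.39 (SE 0.19, adjusted p = 0.381 by limma). Without knockout 2 the difference was 0.56 (adjusted p = 0.0667), in a fit that called 2.04% of all genes. That was the highest value with 1 array left out, and the lowest was 0.29, without knockout 3. The unadjusted limma p of Fasn was under 0.05 in 2 of these 10 fits. The fold with all arrays was 1.31, and its 95% interval reached 0.988 to 1.74.

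Me1, the cytosolic malic enzyme, had the largest difference of the 10 genes and the widest interval. Its knockout arrays read 9.16, 10.07, 8.96, 10.02 and 9.32, against 9.65, 8.93, 9.60, 8.40 and 8.17 on the control arrays. Each group holds 2 arrays well above the rest, knockouts 2 and 4 and controls 6 and 8. Me1 averaged 9.51 ± 0.51 over the 5 knockouts and 8.95 ± 0.68 over the 5 controls (SD), a difference of 0.56 (SE 0.32, adjusted p = 0.465 by limma) with a 95% interval of -0.13 to 1.25. Without control 10 it was 0.36. Pnpla3, a lipase-like protein of lipid droplets that SREBP-1 is known to raise in liver, lay between 5.16 and 5.34 in knockouts and between 5.22 and 5.38 in controls. The difference was -0.06 (SE 0.08, adjusted p = 0.786), the narrowest interval of the members at -0.22 to 0.11, and it was -0.0335 without knockout 5. Pnpla3, Thrsp and Acacb had mean intensities at the 38.9, 38.8 and 47.6 percentiles of all genes, and detection above background was not analysed here.

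**Figure D2:**
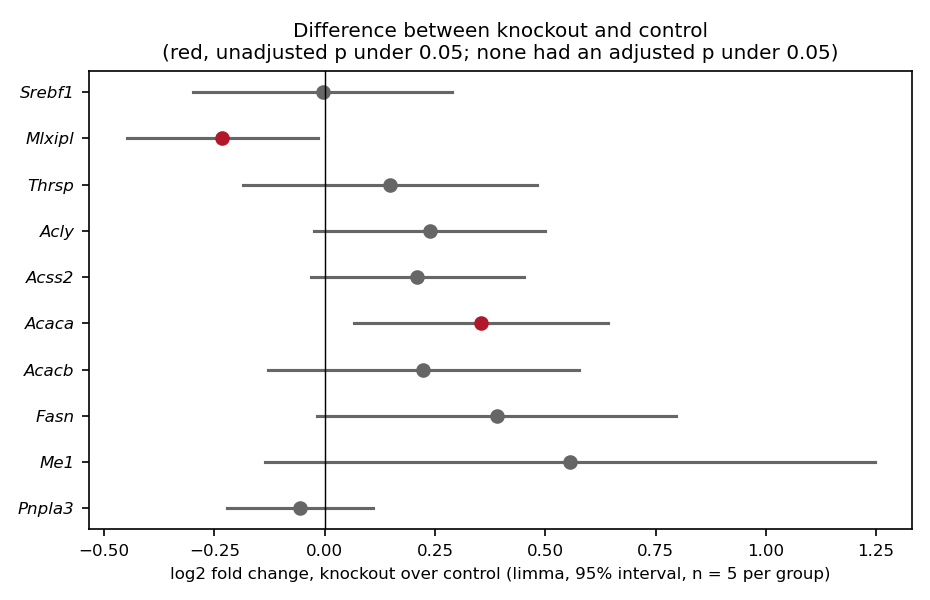
Log2 fold change of knockout over control (x axis) for each gene, with the 95% interval of the limma fit, n = 5 arrays per group. The intervals of Acaca (0.07 to 0.64) and Mlxipl (-0.45 to -0.015) leave out 0, in red, and the other 8 include it.

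The spread within the groups had an order of its own. After the mean of its group was subtracted from each array, Acaca, Acacb, Fasn and Acly moved together, with Pearson r between 0.833 and 0.910 in all 6 pairs over the 10 arrays. Me1, Thrsp, Srebf1 and Mlxipl formed the other set, with r between 0.613 and 0.795 among themselves. Every pair taken across the sets was negative, from -0.565 for Srebf1 with Acly to -0.849 for Acaca with Me1. Acss2 and Pnpla3 followed neither set closely. These coefficients describe 10 arrays whose points share the same RNA pieces. On knockout 2, Fasn was 0.67 below and Me1 0.56 above its group mean, and on control 6 Fasn was 0.26 below and Me1 0.70 above. Those 2 arrays were the lowest of their groups in Paneth and proliferation markers. On control 8, also low in Paneth markers, Fasn stood at -0.14 and Me1 at 0.65, with proliferation markers at 0.036. Knockout 4 had Me1 at 0.51 and Fasn at 0.01, with Paneth markers at -0.30 and proliferation markers at 0.26. Enterocyte markers were the highest of their groups on knockout 2 (0.16) and control 6 (0.13). The part of the makeup of the pieces in this pattern was not tested.

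**Figure D3:**
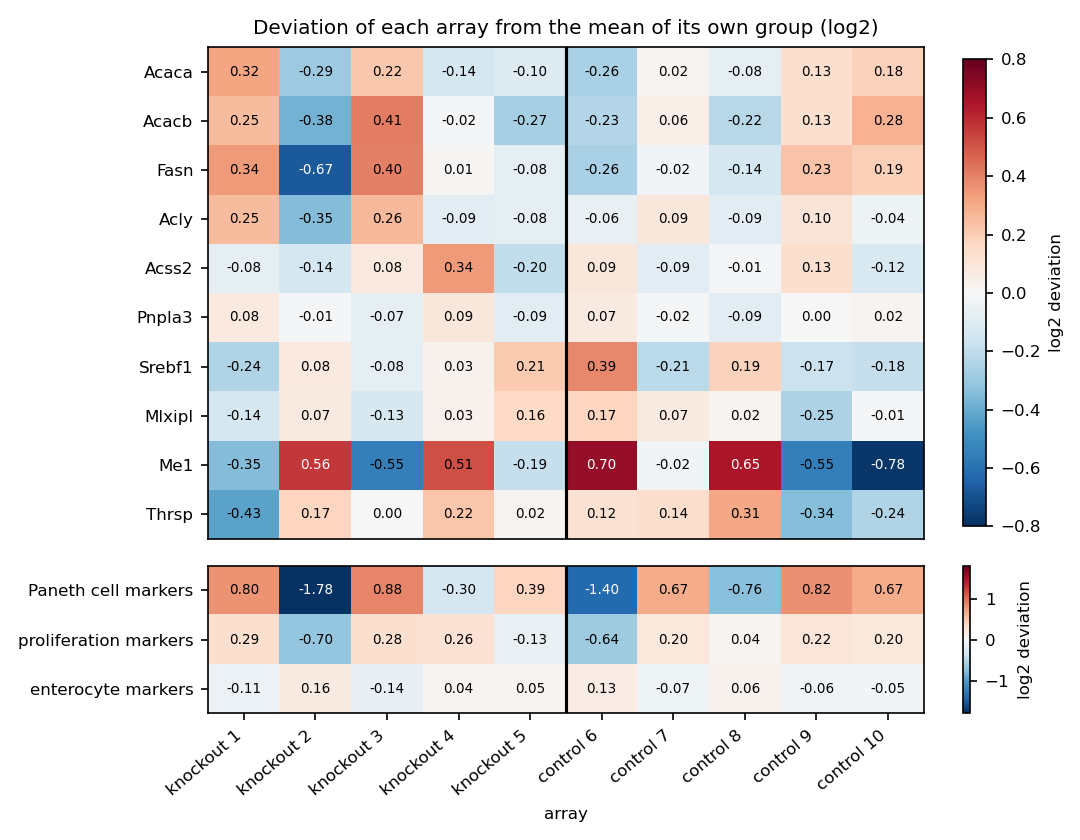
Deviation of each array (columns, knockouts left of controls) from the mean of its own group, in log2 intensity, for the 10 genes (upper panel) and for the mean of 3 marker lists (lower panel, with its own colour scale). Acaca, Acacb, Fasn and Acly are blue on knockout 2 and control 6, where Me1 is red and the Paneth and proliferation markers are lowest.

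Neither transcription factor had a positive relation to Acaca, Acacb, Fasn or Acly across the arrays. Of 17 relations of Srebf1 or Mlxipl to the other members, tested on deviations from the group means by an exact two-sided permutation within groups, 1 passed after Benjamini-Hochberg adjustment. That was Srebf1 with Acaca, which was negative (Pearson r = -0.798, permutation p = 0.00292, adjusted 0.0496, and Spearman rho = -0.758, permutation p = 0.00951, adjusted 0.0534). It was -0.757 without control 6 and knockout 5, the arrays farthest from the median Srebf1 deviation. Srebf1 with Fasn gave r = -0.625 (rho = -0.697, permutation p = 0.0286 and 0.0325, adjusted 0.0754 and 0.0858), and Mlxipl with Fasn r = -0.690 (rho = -0.830, permutation p = 0.0190 and 0.00604, adjusted 0.0754 and 0.0534). With the Paneth marker level regressed out of the deviations, a step chosen after seeing the data, Srebf1 and Acaca stood at -0.453 (permutation p = 0.303, adjusted 0.657) and Srebf1 and Fasn at 0.146. With each array centred on its median, Srebf1 and Acaca gave -0.661 (permutation p = 0.0304, adjusted 0.107).

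The genes ranked most like Fasn across the 10 arrays were not among the 10 members followed here. Among 10335 other genes with a mean log2 intensity of at least 6, those with the highest r to the deviations of Fasn were Rplp0 (0.993), Fam83e (0.983), Eftud2 (0.981), Cdk2 (0.980) and Mecr (0.978). Acaca ranked 147 and Acly 170 in that order. The members Acacb, Thrsp and Pnpla3 had lower mean intensities and were not ranked. For Srebf1 the nearest were Otud7b (0.963), Ulk2 (0.957), Kif21b (0.938), Chn2 (0.930) and 2610507B11Rik (0.926). For Mlxipl they were Morf4l1-ps1 (0.972), Zfand3 (0.966), Smg6 (0.956), Sema4g (0.942) and Mir23b (0.922). Morf4l1-ps1 is a pseudogene, and its probe set may read its parent gene. These names are a ranking over 10 arrays, in which all genes of an array come from the same piece of tissue, and the pieces differed in Paneth and smooth muscle markers.

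The difference between knockout and control was then set beside the markers of other cells. With the Paneth marker level as a covariate, Acaca stood at 0.30, Fasn at 0.31, Mlxipl at -0.21 and Me1 at 0.70, with limma adjusted p-values of 0.112, 0.167, 0.285 and 0.0691. These 4 of 10 members had an unadjusted p under 0.05, against 16% of all genes in that fit, and 0 were called, against 1.66% of all genes. Without the 3 arrays lowest in Paneth markers, Acaca, Acly, Fasn and Me1 had no overlap, 4 of 10 against 13.5% of all genes, and with the 3 arrays richest in smooth muscle markers left out Mlxipl alone had none, 1 of 10 against 9.41%. With the level of proliferation markers as a covariate, which itself was higher in knockouts, Acaca came to -0.020, Fasn to -0.23, Acly to -0.056 and Acacb to -0.25. Mlxipl came to -0.040 (adjusted p = 0.952), Acss2 to 0.12 and Thrsp to 0.38. In that fit Me1 stood at 1.35 (adjusted p = 0.526) and Srebf1 at 0.34 (adjusted p = 0.606). Me1 was the 1 member with an unadjusted p under 0.05, against 8.58% of all genes, and 0 members were called, against 0.00451%. The 4 enzymes that moved together thus had positive differences without this covariate. With it their values were negative but not resolved from 0, with unadjusted limma p-values from 0.184 for Acacb to 0.894 for Acaca. Adipocyte markers, 6 of 8 measured, averaged 5.22 to 5.41 in knockouts and 5.32 to 5.56 in controls, with Adipoq at 3.48 to 4.11 in knockouts and 3.38 to 4.13 in controls. With their level as a covariate Acaca stood at 0.42, Fasn at 0.43 and Mlxipl at -0.22, with limma adjusted p-values of 0.373, 0.533 and 0.554. Array medians were 5.77 to 5.89, above these marker averages, and how far the averages read adipocytes was not tested. Smooth muscle markers, all 10 measured, averaged 6.78 to 8.16 in knockouts and 6.43 to 9.97 in controls, and with their level as a covariate Acaca and Fasn stood at 0.38 and 0.42. Macrophage markers, 8 of 8 measured, averaged 6.85 to 7.56 in knockouts and 6.51 to 7.06 in controls, with 4 higher at an unadjusted p under 0.05 (8.29% of all genes). Their part in the result was not tested.

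**Figure D4:**
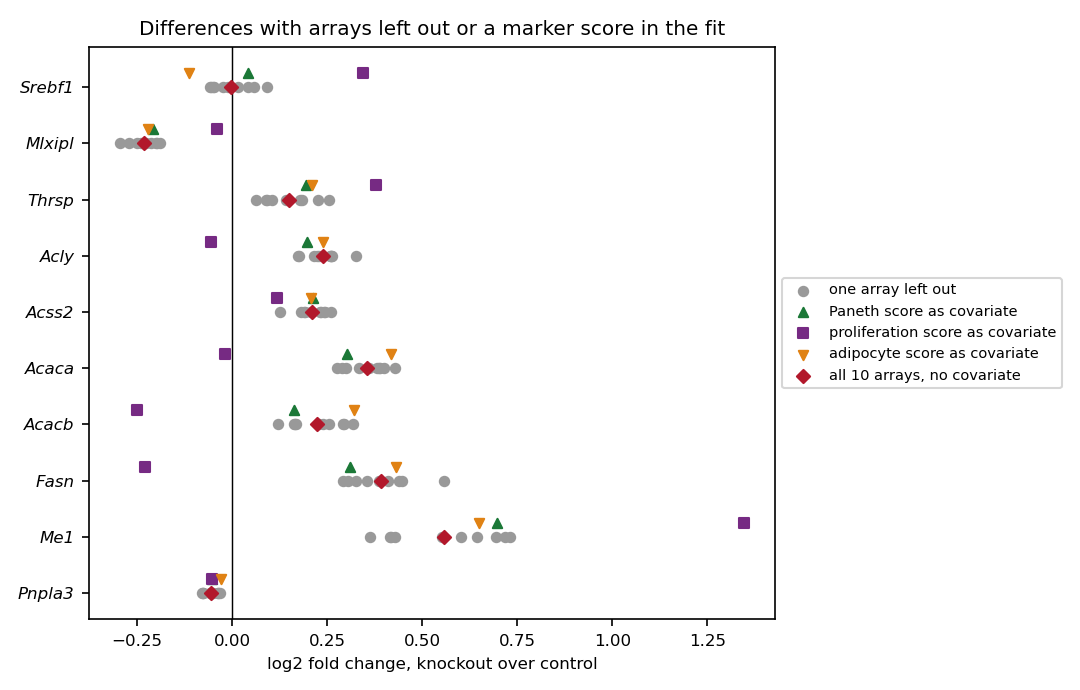
Log2 fold change of knockout over control (x axis) for each gene with all 10 arrays (red diamond), with each array left out in turn (grey) and with a marker level as covariate (triangles and square). Acaca, Acacb, Fasn and Acly stay right of 0 with any array left out and lie left of it with the proliferation covariate, at -0.020, -0.25, -0.23 and -0.056.

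Genes that control SREBP or feed the pathway were read from 5 further lists, and none of their members had an adjusted p under 0.05 with all 10 arrays and no covariate. Over all genes, 8.29% had a positive and 5.56% a negative difference with an unadjusted p under 0.05, the shares against which the counts of each list stand. Some single genes were called under an alternative. Without knockout 2, where 2.04% of all genes were called, the adjusted p was 0.0281 for Mbtps2, 0.0454 for Pgd and 0.0493 for Acot12. With the Paneth covariate, where 1.66% were called, it was 0.0328 for Scd1, 0.0438 for Arntl, 0.0487 for Pklr and 0.0487 for Pgd.

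Of 12 measured genes of SREBP control, 1 was higher at an unadjusted p under 0.05 and 0 lower (list median 0.05), which is near the share over all genes. That gene was Mbtps2, the site-2 protease that releases SREBP from the membrane, at 7.37, 7.01, 7.48, 7.41 and 7.09 in knockouts, against 6.83, 6.91, 6.78, 6.73 and 6.83 in controls. Its groups did not overlap, and the difference was 0.46 (SE 0.10, adjusted p = 0.128 by limma), 0.52 without knockout 2 and 0.24 with the proliferation covariate. Srebf2, the sterol-regulated sister of Srebf1, stood at 0.30 (SE 0.14, adjusted p = 0.378), the site-1 protease Mbtps1 at 0.16 (SE 0.08) and Insig1, which holds SREBP in the endoplasmic reticulum, at 0.35 (SE 0.22). With the proliferation covariate Srebf2 came to 0.0011 and Insig1 to 0.54. With 1 array left out Insig1 ranged from 0.22 without control 10 to 0.52 without control 8. It was 0.72 without the 3 arrays lowest in Paneth markers and 0.13 without the 3 richest in smooth muscle markers.

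In the list of partners and targets of ChREBP, 3 of 10 measured genes were higher and 1 was lower at an unadjusted p under 0.05 (list median 0.01). Pklr, the pyruvate kinase known as a ChREBP target in liver, read 11.00 to 11.20 in knockouts and 10.57 to 10.88 in controls without overlap, a difference of 0.33 (SE 0.09, adjusted p = 0.147). Mlx, the partner with which ChREBP binds DNA, was at 0.24 (SE 0.09, adjusted p = 0.271), and the fructose kinase Khk at -0.19 (SE 0.09, adjusted p = 0.348). The remaining gene, Arntl, belongs to the clock. With the proliferation covariate Khk came to -0.090 and Arntl to 0.28.

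Among 11 measured genes of citrate and NADPH supply, 1 was higher and 1 lower at an unadjusted p under 0.05 (list median 0.10), again near the share over all genes. Pgd, which makes NADPH in the pentose phosphate pathway, read 10.98, 10.77, 11.04, 10.87 and 10.66 in knockouts, against 10.49, 10.47, 10.36, 10.52 and 10.33 in controls. All knockouts were above all controls, by 0.43 on average (SE 0.09, adjusted p = 0.118). Acot12, a thioesterase that turns cytosolic acetyl-CoA into acetate, was at -0.48 (SE 0.16, adjusted p = 0.211). Citrate synthase Cs was at 0.15 (SE 0.09) and the mitochondrial acetyl-CoA synthetase Acss1 at 0.34 (SE 0.23). Acss1 was 0.018 with the mean over its probe sets, 0.16 without control 6 and 0.52 without control 9. With the proliferation covariate Acss1 and Acot12 turned sign, to -0.23 and 0.064.

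The next list joined genes that control acetyl-CoA carboxylase with genes tied to its product malonyl-CoA, such as Cpt1a and Mlycd. Of these 12 genes, 3 were higher at an unadjusted p under 0.05 and 0 lower (list median 0.11). Mid1ip1, which promotes the assembly of carboxylase filaments and is related to Thrsp, was at 0.28 (SE 0.12, adjusted p = 0.338). With the mean over its probe sets it was 0.12 and no longer among the 3. Cpt1a, the mitochondrial carnitine transferase that malonyl-CoA inhibits, was at 0.25 (SE 0.10, adjusted p = 0.287). Brca1, a DNA repair protein that also binds phosphorylated carboxylase, was at 0.68 (SE 0.21, adjusted p = 0.189), and it was lowest on knockout 2 (5.73) and control 6 (4.99), as the proliferation markers were. The kinase subunit Prkab1 was at 0.31 (SE 0.16). With the proliferation covariate Cpt1a came to 0.012 and Prkab1 to 0.016, and Brca1 and Mid1ip1 turned sign to -0.022 and -0.030.

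A list of genes mostly acting past palmitate also held Mcat and Olah, which belong to fatty acid synthesis itself. Of its 13 measured genes, 5 were higher and 0 lower at an unadjusted p under 0.05 (list median 0.19). These were the desaturases Scd1, Fads1 and Fads2, the phosphatidate phosphatase Lpin1 and, named after its value was seen, the elongase Elovl5. Scd1 read 9.12, 9.89, 9.11, 10.41 and 9.14 in knockouts, against 7.95, 8.36, 8.62, 7.69 and 6.52 in controls. Its groups did not overlap, with a mean difference of 1.71 (SE 0.37, adjusted p = 0.121). Fads1 stood at 0.76 (SE 0.28), Fads2 at 0.65 (SE 0.23) and Lpin1 at 0.32 (SE 0.09), with adjusted p-values between 0.178 and 0.254. With the proliferation covariate Fads1 came to 0.20 and Lpin1 to 0.13, and Fads2 turned sign to -0.21.

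**Figure D5:**
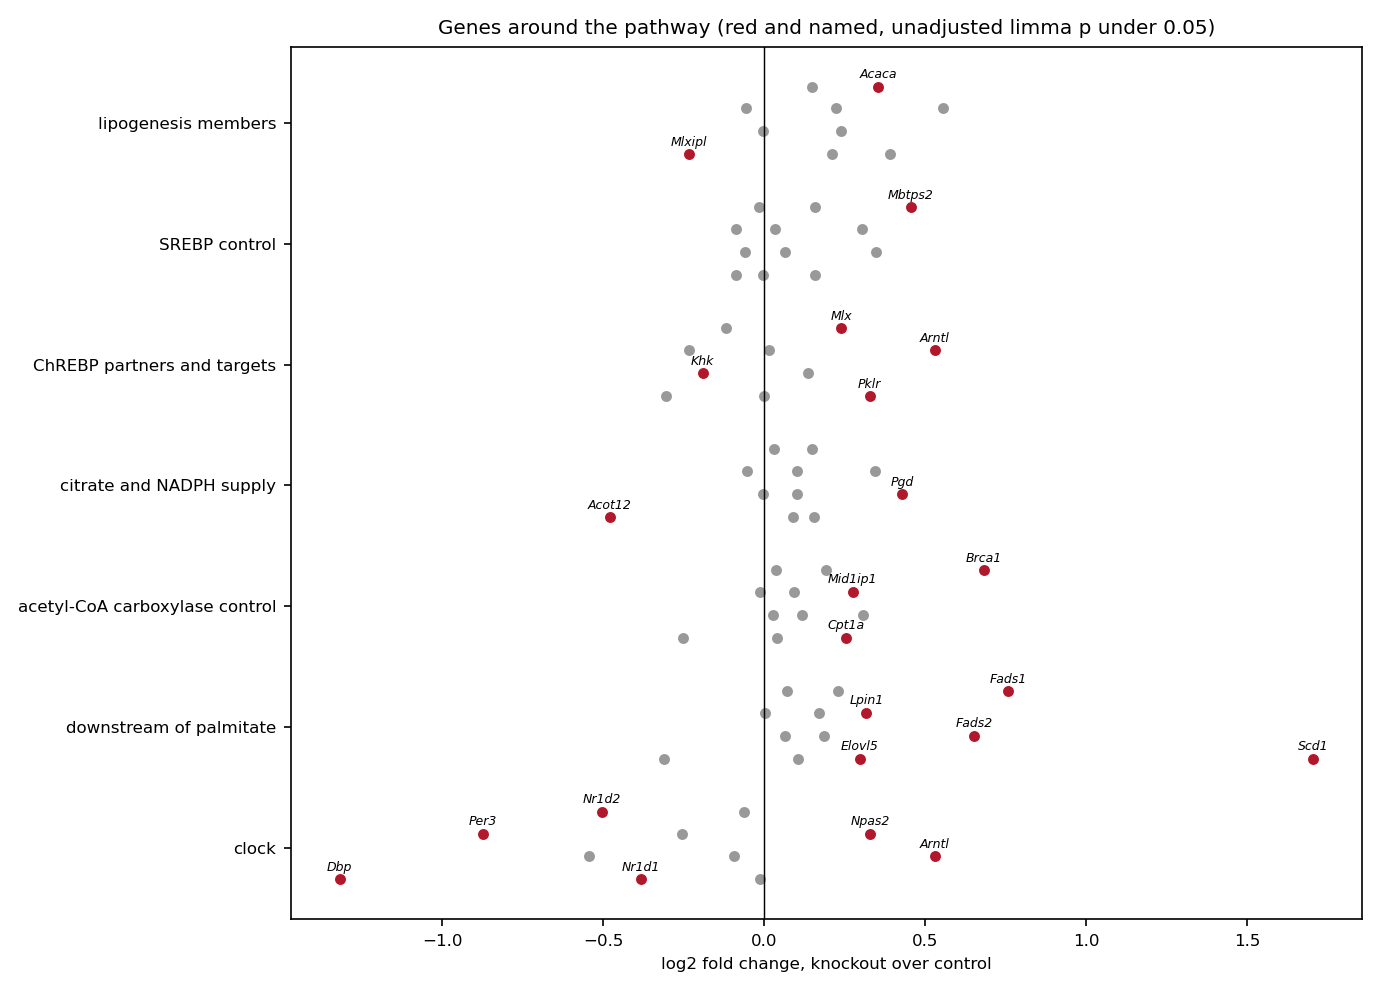
Log2 fold change of knockout over control (x axis) for each measured gene of 7 lists, 1 point per gene, spread vertically only to part the points. Genes at an unadjusted limma p under 0.05 are red and named, and Scd1 at 1.71 lies farthest to the right. No gene shown had an adjusted p under 0.05 with all 10 arrays.

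Lipogenic genes are known to follow the day, and the labels give no hour of collection. Of 11 measured clock genes, 2 had positive and 4 negative values with an unadjusted p under 0.05, against 8.29% and 5.56% of all genes. Arntl and Npas2 were the only 2 with positive values, and the other 9, the activator Clock among them, were negative. The activators Arntl and Npas2 stood at 0.53 (SE 0.14) and 0.33 (SE 0.12). Dbp, an output of the clock, was at -1.32 (SE 0.41) and Per3 at -0.87 (SE 0.24), with adjusted limma p-values of the 4 genes between 0.147 and 0.240. Per3 had an adjusted p of 0.0498 without knockout 2, and with the proliferation covariate Per3 came to -0.40 and Dbp to -0.53. The other two, Nr1d1 and Nr1d2, were named after their values were seen. Their part in the values of the lipogenesis genes was not tested.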

How the data were processed

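Jejunal RNA of 10 samples was read on Affymetrix whole-transcript arrays, 1 array per sample. The authors deposited probe set intensities on a linear scale from 1.88 to 15500.2. For these the submitters' processing notes name RMA and the program Affymetrix Expression Console, version 1.4.1.46. The log2 of these intensities lay on steps of 0.01, so each value carries that rounding. The genome build behind the probe sets is not given in the sources used here. Groups came from the sample titles. The source and description labels of the controls, unlike their genotype, also speak of intestine without phosphatidylcholine synthesis, and the series text mentions re-feeding where every sample label says fasted. Whether samples are separate mice is not stated, so p-values measure the spread between samples.

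Of 34472 probe sets, 23521 had 1 gene symbol, 1814 several and 9137 none. Only the first kind was used, and the probe set with the highest mean stood for a gene, which left 22180 genes with no intensity filter. The R package limma (3.58.1, under R 4.3.3) tested knockouts against controls with lmFit and eBayes, two-sided, with Benjamini-Hochberg adjustment over all genes and a threshold of 0.05. Promoters came from RefSeq, GRCm38.p6. The scripts were tested on simulated data. The number of arrays limits the precision. The members, lists and motifs were chosen with earlier results of these data known. All members were named, and from each pathway list up to 4 genes with the smallest p. For Srebf1, Mlxipl and Fasn the 5 genes with the highest r were named. Exact correlation tests used all 14400 permutations within groups. Alternatives changed the normalization, the filter, the probe set, the variance model, marker covariates and the arrays included.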

Additional observations from a re-analysis of the deposited data

Results flagged for a closer look

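Among 68 groups of 5 arrays examined for a single array far from the others, 3 were marked, close to the 5% that chance gives. Acot12, the cytosolic acetyl-CoA thioesterase, read 10.22 on knockout 2, against 9.56 to 9.66 on the other knockouts. The same gene read 10.69 on control 6, against 10.02 to 10.15 on the other controls. Both arrays were also the lowest of their group in Paneth markers (9.88 and 9.97), and the part of this in the value was not tested. The site-1 protease Mbtps1 read 8.02 on knockout 3, against 8.17 to 8.23 on the other knockouts. None of the 10 lipogenesis genes had such an array.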

How the results depend on the processing

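No lipogenesis gene was called under any of the 25 alternatives. Their median log2 fold change was 0.16 to 0.28 with 1 array left out and -0.030 with the proliferation covariate. The count at an unadjusted p under 0.05, 2 as reported, was 0 to 4 with 1 array left out (0 without knockout 1 or knockout 3, 4 without knockout 2, 1 without knockout 4, control 6, control 7 or control 10), 4 with the Paneth covariate, 1 with the adipocyte or the proliferation covariate, and 1 when the 3 arrays richest in smooth muscle markers were left out. Groups without overlap numbered 0 to 3 with 1 array left out (3 without knockout 2, when 7.66% of all genes did not overlap, and 1 without control 9), 4 without the 3 arrays lowest in Paneth markers (13.5% of all genes) and 1 without the smooth muscle arrays (9.41%). Leaving out these sets of 3 arrays was chosen after seeing the data. At an unadjusted limma p under 0.05 the share of all genes was 13.9% as reported and 15.9% without knockout 2. It was 16% with the Paneth and 8.58% with the proliferation covariate. For the other fits that share is not given, nor is the share without overlap when control 9 was left out. Counts with no share beside them are not read as a result about the members. Over all genes, 6 calls became 2 to 452 with 1 array left out (452 without knockout 2, 3 without control 10, 2 without any of knockouts 1 and 3 or controls 6, 7, 8 and 9), 2 with median centring, quantile normalization or the adipocyte covariate, 368 with the Paneth and 1 with the proliferation covariate, 69 without the Paneth-low and 2 without the smooth muscle arrays.

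Srebf1, at -0.004 as reported, was -0.0575 to 0.0925 with 1 array left out, 0.022 with median centring, 0.025 with array weights, 0.041 with the Paneth and 0.34 with the proliferation covariate, and 0.17 without the Paneth-low arrays. With the proliferation covariate the sign also turned for Acaca (-0.020), Acacb (-0.25), Fasn (-0.23), Acly (-0.056), Acot12 (0.064), Acss1 (-0.23), Brca1 (-0.022), Mid1ip1 (-0.030) and Fads2 (-0.21). The 1 relation that passed became 0 with median centring and 0 with the Paneth level regressed out. With median centring r turned for Pnpla3 with Srebf1 (0.145) and with Mlxipl (0.0533), and with the Paneth level regressed out it turned for Srebf1 with Fasn (0.146) and with Acly (0.0864). The cause of these changes was not tested. No paired analysis was possible because knockouts 1 to 5 and controls 6 to 10 share no replicate number.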
